A study of Mus musculus with 12 samples.

Results

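Extracellular purines are sensed by receptors, and surface enzymes trim nucleotides down to adenosine. Here 10 genes of that system were followed in cultured mouse astrocytes. The 10 genes were taken by name from a count table of 18903 genes, by a rule that uses no measured value: the adenosine receptors *Adora1*, *Adora2a* and *Adora2b*, the ATP-gated channels *P2rx4* and *P2rx7*, the nucleotide receptors *P2ry1*, *P2ry2* and *P2ry14*, and the ectonucleotidases *Entpd2* and *Nt5e*. All 10 were in the table and all 10 passed the filter on low counts. The list itself was drawn up with earlier results of these data known. The shares of members called are therefore not those of a blind choice.

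Messenger RNA was sequenced from primary astrocytes of mouse brains taken at postnatal day (P) 1, 6 and 8, from *Rack7*-cKO mice (hGFAP-cre::*Rack7* fl/fl) and from WT mice (hGFAP-cre::*Rack7* +/+), with 2 libraries for each of the 6 groups and 12 in all. Both genotypes carry the hGFAP-Cre transgene, so that a human GFAP promoter drives Cre in neural stem cells of the dorsal forebrain, and in the cKO mice exons 3 and 4 of *Rack7* lie between loxP sites. Per the study's methods, the meninges were peeled off, the cells were grown for about 10 days, and the dishes were shaken to detach microglia and oligodendrocytes. After the shaking, the cells left behind were grown for some days more, to confluence. The labels call the 2 libraries of a group biological replicates but do not say which animals or cultures they came from, so p-values measure the spread between these libraries, which may be partly technical.

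As background, stressed or active cells release ATP and other nucleotides. P2X receptors are cation channels opened by ATP, P2Y receptors are G protein-coupled receptors for nucleotides and nucleotide sugars, and a chain of surface enzymes converts ATP through ADP and AMP to adenosine, which acts on its own G protein-coupled receptors. Astrocytes use this system for calcium signalling, and microglia use it to sense injury.

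The promoters of 4 members are printed because *Adora1* and *Entpd2* were lower, and *Adora2b* and *P2rx4* higher, in the P8 libraries labelled cKO. Each stretch holds the 250 bases before the RefSeq transcription start (build GRCm38.p6), read 5′ to 3′ on the strand of the gene, with capitals for the GC box GGGCGG or its reverse complement. The *Adora1* stretch is chr1:134235458-134235707 on the minus strand, the *Entpd2* stretch chr2:25395624-25395873 on the plus strand, the *Adora2b* stretch chr11:62248734-62248983 on the plus strand, and the *P2rx4* stretch chr5:122707294-122707543 on the plus strand.
Adora1: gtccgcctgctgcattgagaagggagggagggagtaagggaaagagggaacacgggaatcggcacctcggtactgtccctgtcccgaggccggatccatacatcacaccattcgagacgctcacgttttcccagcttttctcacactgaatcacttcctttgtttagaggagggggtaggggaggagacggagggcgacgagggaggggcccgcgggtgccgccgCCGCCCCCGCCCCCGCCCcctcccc
Entpd2: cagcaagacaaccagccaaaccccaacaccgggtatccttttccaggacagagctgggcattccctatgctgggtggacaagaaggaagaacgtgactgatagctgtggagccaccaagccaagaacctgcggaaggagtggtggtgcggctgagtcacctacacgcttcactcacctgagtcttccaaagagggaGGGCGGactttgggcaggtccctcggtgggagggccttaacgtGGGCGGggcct
Adora2b: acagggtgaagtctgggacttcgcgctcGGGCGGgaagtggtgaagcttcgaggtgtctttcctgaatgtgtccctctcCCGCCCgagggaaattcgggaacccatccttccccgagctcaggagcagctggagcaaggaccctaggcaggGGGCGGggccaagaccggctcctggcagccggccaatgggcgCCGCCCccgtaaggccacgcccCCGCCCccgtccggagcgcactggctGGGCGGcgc
P2rx4: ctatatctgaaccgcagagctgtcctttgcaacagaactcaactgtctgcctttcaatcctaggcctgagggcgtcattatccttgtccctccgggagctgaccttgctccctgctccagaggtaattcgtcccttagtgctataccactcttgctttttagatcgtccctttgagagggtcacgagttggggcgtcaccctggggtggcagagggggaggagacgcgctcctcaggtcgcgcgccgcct
The 250 bases of *Adora2b* held 6 GC box matches, those of *Adora1* 3, lying end to end, those of *Entpd2* 2, and none was in the *P2rx4* stretch.

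A promoter window of 300 bases (250 before to 50 after the start) was given for 9 of the 10 members, all but *Adora2a*. Of all 32851 such windows, 35.7% held at least 1 GC box on either strand, and among the 9 members the window of *P2ry14* had no match. The E-box CACGTG (7.15% of all windows) had a match in the window of *P2ry2*, whereas the cAMP response element TGACGTCA (1.79%) and the TATA box TATAAA (13.6%) had no match in the 9 windows. CpG dinucleotides numbered 28 in the window of *P2ry2*, 27 in *Adora2b*, 26 in *Adora1*, 25 in *P2ry1*, 23 in *Nt5e*, 18 in *P2rx4* and 13 in *Entpd2*, against a median of 7 over all windows. The windows of *P2rx7* and *P2ry14* had 8 and 4. A match of letters is a description and does not show a bound factor.

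*Zmynd8*, the gene that encodes RACK7, was first read in every library as a check of the labels. Its level was 99.98 to 136 CPM (each gene's count scaled by the TMM-adjusted size of its library) in the 6 libraries labelled WT and 160 to 242 CPM in the 6 labelled cKO, so the whole-gene count was higher where a deletion is labelled, at all 3 time points. A count over the whole gene cannot show the loss of exons 3 and 4. For that reason libraries are named below by their label, and every direction between genotypes is that of the labels.

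Markers of several cell types were present in the cultures. No defining marker of the astrocyte list (9 of 10 genes in the table) was at 0 in any library, and the list summed to 1404 to 2253 CPM in all libraries but those labelled cKO at P8, which had 687 and 702 CPM. At P8, 5 of the 9 astrocyte markers were lower in the libraries labelled cKO. The 13 microglia markers summed to 4489 and 4659 CPM in the P8 libraries labelled WT and to 8443 and 8536 CPM in those labelled cKO, a ratio of 1.86, and 9 of 13 were higher, while *Tmem119* was lower and *Cx3cr1*, *Csf1r* and *Fcrls* did not pass the test and cut-off. The 7 fibroblast and meningeal markers summed to 25597 and 25721 CPM at P8 under the label WT and to 8091 and 8340 CPM under the label cKO, with all 7 lower. At P1 this list ran the other way, with 370 and 380 CPM under WT and 2420 and 2448 CPM under cKO and 6 of 7 higher, and at P6 it had 6581 and 6629 CPM under WT and 2420 and 2599 CPM under cKO, with 6 of 7 lower. The 2 neuron markers in the table, of 6 listed, summed to 50.4 and 50.8 CPM at P8 under WT and to 153 and 154 CPM under cKO, both higher, a ratio of 3.03. The 3 endothelial markers in the table, of 5 listed, summed to 145 and 158 CPM at P8 under WT and to 33.9 and 35.4 CPM under cKO, with 2 lower and 1 higher. The mural and oligodendrocyte lists had ratios of the label cKO to WT of 1.23 and 0.762 at P8. Among all lists only *Lum*, a fibroblast marker, was at 0, in both P6 libraries labelled cKO. In such bulk samples, fewer cells of a type and less RNA per cell cannot be told apart.

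**Figure D1:**
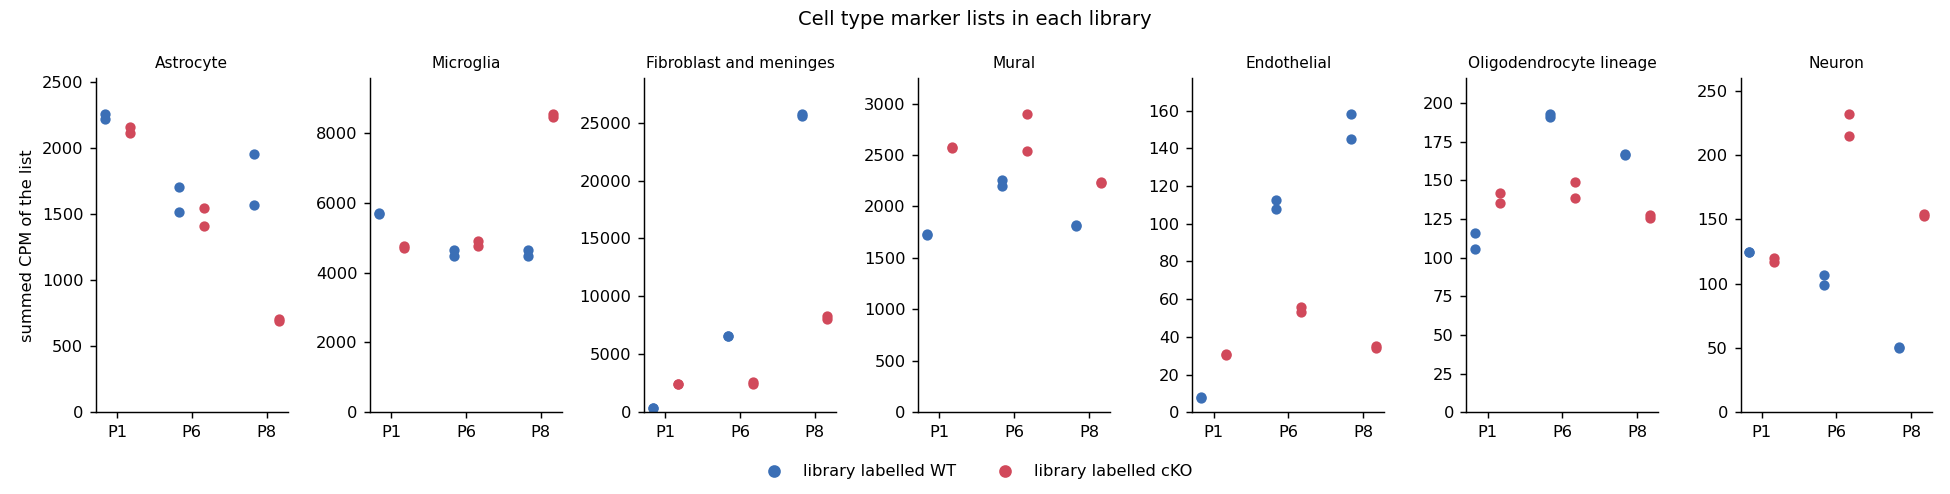
Summed CPM (linear vertical axes from 0, scaled to each list) of 7 cell type marker lists against the postnatal day of the brains, with 1 point per library and blue for the label WT, red for cKO. At P8 the libraries labelled cKO had the highest microglia sums, at 8443 and 8536 CPM, and the lowest astrocyte sums, at 687 and 702 CPM.

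Corrected for exon length (RPKM, which is CPM per kilobase of annotated exon), *P2rx4* had the highest level of the 10 genes at P1 and at P8 under both labels. Its level was 14.7 ± 0.382 RPKM (SD, n = 2) at P1 and 8.22 ± 0.544 RPKM at P8 under the label WT, and 12.4 ± 0.247 and 12.7 ± 0.294 RPKM under the label cKO. In the P6 libraries labelled WT, *P2rx4* at 5.38 ± 0.266 RPKM, *P2rx7* at 5.10 ± 1.68 RPKM and *P2ry2* at 4.49 ± 1.74 RPKM came next to each other with overlapping libraries. In the P6 libraries labelled cKO, *P2rx7* stood first at 11.1 ± 0.391 RPKM, apart from *P2ry2* at 7.36 ± 1.18 RPKM, whose libraries overlapped those of *P2rx4* at 6.49 ± 2.09 RPKM.

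The lower end of the order was made up of *P2ry14*, *Adora2a* and *Nt5e* in most groups. *Nt5e* lay between 0.509 and 1.59 RPKM, *P2ry14* between 0.223 and 0.869 RPKM, and *Adora2a* between 0 and 0.601 RPKM as group means. *Adora1* and *P2ry1* overlapped in the P1 libraries labelled WT, at 3.93 ± 0.209 and 4.0 ± 0.338 RPKM. In the P8 libraries labelled cKO, *Adora2b* at 3.01 ± 0.496 RPKM, *P2ry2* at 2.73 ± 1.66 RPKM, *Entpd2* at 2.70 ± 0.342 RPKM and *P2ry1* at 2.37 ± 0.284 RPKM followed each other with neighbours that overlapped.

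The comparison of the labels cKO and WT at each time point asks which of these genes differ when *Rack7* is deleted in the neural lineage. A gene was called where the adjusted p of edgeR's quasi-likelihood test was below 0.05 and the fold change was at least 1.5. At P1, *Adora2b* and *Nt5e* were called higher and the other 8 members were not called, against 4.9% of all 17938 genes tested in either direction and 4.01% called higher. The fibroblast and meningeal list was higher in the same P1 libraries labelled cKO, and its part in these calls was not tested. At P6, *P2rx7* was called higher, *Adora2b* and *Entpd2* lower, and 7 were not called, with 13.5% of all genes called, 7.16% higher and 6.38% lower. That list was lower in the P6 libraries labelled cKO. The endothelial sums had ratios of label cKO to WT of 3.99 at P1 and 0.493 at P6. In the same order, the ratios were 1.49 and 1.22 for the mural list and 0.948 and 2.18 for the neuron list. They were 1.25 and 0.751 for the oligodendrocyte, 0.954 and 0.914 for the astrocyte and 0.833 and 1.06 for the microglia list. The part of any list in the P1 or P6 calls was not tested. At P8 all 10 members were called, 8 higher and 2 lower (*Adora1* and *Entpd2*), with 19.6% of all genes called, 11.2% higher and 8.37% lower. In the same P8 libraries labelled cKO the microglia and neuron sums were higher and the astrocyte, fibroblast and endothelial sums lower. Their part in the P8 calls was not tested.

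Over the 10 members the median log2 fold change came to 0.08 at P1, to 0.25 at P6 and to 0.72 at P8 (the same with *Adora2a* set at its lower bound), while that of all genes tested was 0.00, 0.00 and 0.01. The 2 libraries of one label lay wholly above or below those of the other for 6 members at P1, 7 at P6 and 10 at P8, as they did for 51.2%, 59% and 70.8% of all genes tested. No exact permutation test of 2 against 2 libraries can give a p below 0.333, so the calls rest on the spread shared over all genes and libraries. Without the second P8 library labelled WT, the P8 calls of *P2rx4*, *P2rx7*, *P2ry1* and *P2ry2* were lost. Their log2 fold changes were then 0.56, 0.51, 0.56 and 1.35.

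**Figure D2:**
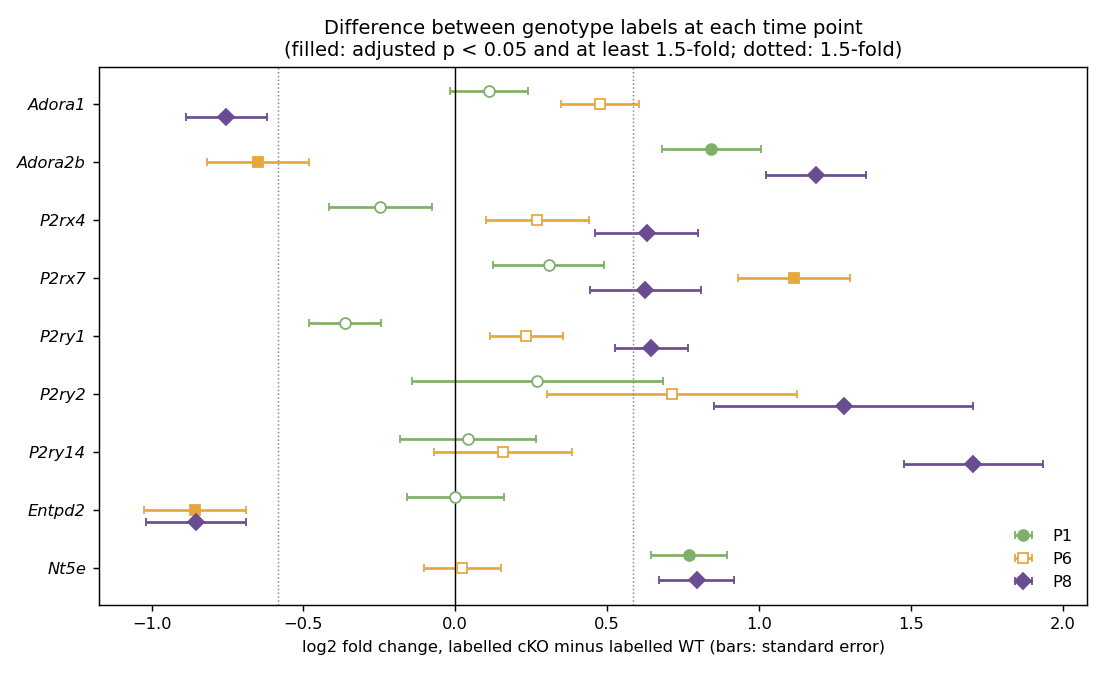
Log2 fold change (horizontal axis, labelled cKO minus labelled WT, bars of 1 standard error) of 9 members at P1 (green circles), P6 (orange squares) and P8 (purple diamonds), with filled symbols for called differences and dotted lines at 1.5-fold. *Adora2a* is left out because it had no count in the P8 libraries labelled WT. *Adora1* and *Entpd2* lie on the negative side at P8, and the other 7 on the positive side, with *P2ry14* farthest out at 1.71.

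*Adora1* encodes the inhibitory, Gi-coupled adenosine receptor (chr1:134199223-134235431, minus strand, GRCm38, ENSMUSG00000042429). Its level was 23.6 and 21.9 CPM in the P1 libraries labelled WT, 27.9 and 21.1 CPM in those labelled cKO, 22.5 and 22.3 CPM at P6 under WT, 29.5 and 32.8 CPM at P6 under cKO, 10.7 and 10.4 CPM at P8 under WT and 5.96 and 6.53 CPM at P8 under cKO. The labels overlapped at P1, the label cKO was higher at P6, and it was lower at P8, where both of its libraries had the lowest values of the 12. At P8 the log2 fold change was -0.75 (SE 0.13, edgeR adjusted p = 0.00184), a level 1.69-fold lower. At P6 it was 0.48 (SE 0.13, edgeR adjusted p = 0.0237), under the cut-off of 1.5-fold. *Adora1* shares 1162 annotated exon bases, 20.1% of its own, with *Mybph* on the other strand, and for the strand setting of the counting no source was at hand.

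*Adora2b* encodes a Gs-coupled adenosine receptor of low affinity (chr11:62248984-62266453, plus strand, ENSMUSG00000018500) and went the other way from *Adora1* at P6 and at P8. Its level was 3.82 and 3.85 CPM at P1 under the label WT against 6.53 and 7.23 CPM under cKO, 2.73 and 2.51 against 1.63 and 1.71 CPM at P6, and 2.46 and 2.41 against 6.19 and 4.90 CPM at P8. The labels did not overlap at any time point, with cKO higher at P1, lower at P6 and higher again at P8. In the edgeR test the log2 fold changes were 0.84 (SE 0.16, adjusted p = 0.0116), -0.65 (SE 0.17, adjusted p = 0.0195) and 1.19 (SE 0.16, adjusted p = 0.000438) on the 3 days in turn. The P1 call was lost without either P1 library labelled WT (edgeR adjusted p = 0.0687 and 0.0651) or without the second labelled cKO (0.0714). The P6 call was lost without the first P6 library labelled WT (edgeR adjusted p = 0.0871) or without the first or second labelled cKO (0.0820 and 0.0584).

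*Adora2a*, the gene of the Gs-coupled adenosine receptor that is known best from the striatum (chr10:75316877-75334784, plus strand, ENSMUSG00000020178), was near the limit of detection after P1. It had 1.86 and 1.82 CPM at P1 under the label WT and 1.05 and 1.07 CPM under cKO, 0.0631 and 0.234 CPM at P6 under WT and 0.609 and 0.249 CPM under cKO, no count in either P8 library labelled WT, and 12 and 15 counts (0.164 and 0.178 CPM) in those labelled cKO. With 3 counts over both libraries taken as the limit for the label WT, the P8 level under the label cKO was at least 7.50-fold higher (edgeR adjusted p = 0.0063). At P1 the label cKO was lower in both libraries, with a log2 fold change of -0.79 (SE 0.59, edgeR adjusted p = 0.517), which did not pass the test. As a ratio within each library, *Adora2b* RPKM over *Adora1* RPKM was between 0.353 and 0.726 in the libraries labelled WT, and under the label cKO it started at 0.733 and 1.07 at P1, with 0.173 and 0.163 in the P6 libraries and 3.26 and 2.35 in the P8 libraries.

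*P2rx4* and *P2rx7* are neighbours on chromosome 5, with 16111 bases between them. *P2rx4* encodes an ATP-gated channel of high sensitivity (chr5:122707544-122729738, plus strand, ENSMUSG00000029470). It was read at 105 and 101 CPM at P1 under the label WT and 88.3 and 85.9 CPM under cKO, 36.5 and 39.1 against 35.2 and 56.0 CPM at P6, and 60.4 and 55.0 against 90.8 and 87.9 CPM at P8. The label cKO was the lower at P1, overlapped WT at P6, where its 2 libraries lay far apart, and was the higher at P8. The P8 log2 fold change was 0.63 (SE 0.17, edgeR adjusted p = 0.0178). That call was lost when any of the 4 P8 libraries was left out, with an edgeR adjusted p of 0.0512 or 0.103 without the first or second labelled WT and 0.0762 or 0.0588 without the first or second labelled cKO.

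*P2rx7* encodes the ATP-gated channel that opens at high ATP and leads to interleukin release in microglia (chr5:122643911-122691432, plus strand, ENSMUSG00000029468). It had 47.8 and 54.2 CPM at P1 under WT and 62.4 and 63.9 CPM under cKO, 23.4 and 37.6 against 64.4 and 67.7 CPM at P6, and 36.3 and 30.8 against 52.4 and 51.3 CPM at P8. All 6 libraries labelled cKO were above the label WT of the same day. The log2 fold change was 0.31 (SE 0.18, edgeR adjusted p = 0.390) at P1, 1.11 (SE 0.18, adjusted p = 0.00189) at P6, and 0.63 (SE 0.18, adjusted p = 0.0264) at P8. The P8 call was lost without the second P8 library labelled WT (edgeR adjusted p = 0.154) or without the first or second labelled cKO (0.0959 and 0.0830).

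Within a library, the RPKM of *P2rx7* divided by that of *P2rx4* was 0.534 and 0.629 at P1 under WT and 0.831 and 0.875 under cKO. At P6 the ratio came to 0.753 and 1.13 under WT and 2.15 and 1.42 under cKO, and at P8 to 0.708 and 0.660 under WT and 0.678 and 0.687 under cKO. The labels did not overlap at P1 and P6, with cKO higher, and overlapped at P8. The microglia list had a ratio of label cKO to WT of 0.833 at P1, 1.06 at P6 and 1.86 at P8, and its part in these differences was not tested.

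*P2ry1*, which encodes a Gq-coupled receptor for ADP (chr3:61002795-61008982, plus strand, ENSMUSG00000027765), stood at 18.2 and 16.1 CPM at P1 under WT and 13.5 and 13.2 CPM under cKO, at 12.1 and 11.1 against 13.2 and 14.1 CPM at P6, and at 6.90 and 6.09 against 11.0 and 9.30 CPM at P8. The label cKO was lower at P1 and higher at P6 and P8. At P8 the log2 fold change was 0.65 (SE 0.12, edgeR adjusted p = 0.00274), whereas at P1 it was -0.36 (SE 0.12, adjusted p = 0.103) and at P6 0.23 (SE 0.12, adjusted p = 0.199). Without the second P8 library labelled WT or the first labelled cKO, the P8 log2 fold change was 0.56 and 0.52, below the cut-off, with edgeR adjusted p of 0.0268 and 0.0253. *P2ry1* shares 992 exon bases, 23.1% of its own, with *Gm37035* on the other strand.

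*P2ry2*, the receptor gene for ATP and UTP (chr7:100996568-101012866, minus strand, ENSMUSG00000032860), had the widest range of group means among the members above 1 CPM, 2.58 on the log2 scale. It was counted at 8.60 and 14.03 CPM at P1 under WT and 13.9 and 13.4 CPM under cKO, 12.8 and 22.5 against 32.2 and 25.6 CPM at P6, and 4.20 and 4.64 against 6.12 and 15.3 CPM at P8. Its replicates lay farther apart than those of most members, and at P8 both libraries labelled cKO were above both labelled WT. The P8 log2 fold change was 1.28 (SE 0.43, edgeR adjusted p = 0.0449). It was 0.47 (edgeR adjusted p = 0.418) without the second P8 library labelled cKO, and the call was also lost without the first or second P8 library labelled WT (0.169 and 0.135), without the first or second P1 library labelled cKO (0.0622 and 0.0623), and without the first or second P6 library labelled cKO (0.0594 and 0.0593).

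*P2ry14* encodes the receptor for UDP-glucose and other UDP sugars (chr3:59113855-59153618, minus strand, ENSMUSG00000036381) and lies within the span of *Med12l* on the opposite strand without sharing exons with it. The P1 values were 3.87 and 3.51 CPM under WT and 3.88 and 3.72 CPM under cKO. At P6 they were 2.38 and 2.54 against 2.15 and 3.35 CPM, and at P8 3.09 and 2.80 against 11.0 and 8.27 CPM. The labels overlapped at P1 and P6, and at P8 both libraries labelled cKO were the highest of the 12. The P8 log2 fold change was 1.71 (SE 0.23, edgeR adjusted p = 0.000344), a 3.26-fold higher level.

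*Entpd2* encodes a surface enzyme that splits ATP to ADP (chr2:25395874-25401321, plus strand, ENSMUSG00000015085). It was at 19.5 and 19.9 CPM at P1 under WT and 21.2 and 18.2 CPM under cKO, 6.69 and 6.56 against 3.17 and 4.14 CPM at P6, and 11.6 and 9.21 against 5.22 and 6.25 CPM at P8. The labels overlapped at P1, and the label cKO was lower at P6 and P8. The fold was alike on both days, 1.81-fold lower each, with a log2 fold change of -0.86 (SE 0.17, edgeR adjusted p = 0.0049) at P6 and -0.85 (SE 0.16, adjusted p = 0.00321) at P8. *Entpd2* shares 612 exon bases, 28.8% of its own, with *Npdc1* on the same strand, and *Npdc1* had 65.3 ± 0.717 CPM (SD, n = 2) under WT and 76.3 ± 7.33 CPM under cKO at P6, and 56.7 ± 1.27 and 47.2 ± 3.96 CPM at P8.

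*Nt5e* encodes the ecto-5′-nucleotidase that makes adenosine from AMP (chr9:88327197-88372092, plus strand, ENSMUSG00000032420). Its values were 5.68 and 4.85 CPM at P1 under WT and 9.13 and 8.81 CPM under cKO, 4.15 and 4.61 against 4.55 and 4.36 CPM at P6, and 8.21 and 7.60 against 14.4 and 13.02 CPM at P8. The label cKO was higher at P1 and P8, and the labels overlapped at P6. The edgeR log2 fold change was 0.77 (SE 0.12, adjusted p = 0.00482) at P1, 0.02 (SE 0.13, adjusted p = 0.930) at P6 and 0.79 (SE 0.12, adjusted p = 0.000869) at P8. At P8 *Entpd2* was thus lower and *Nt5e* higher under the label cKO. *Entpd2* RPKM over *Nt5e* RPKM was 5.69 and 4.90 in the libraries labelled WT against 1.47 and 1.94 in those labelled cKO. This ratio covers these 2 genes and not the whole chain. *Entpd1*, which also degrades ATP, averaged 62.1 CPM under WT and 61.1 CPM under cKO at P8. At P6, however, *Entpd1* averaged 50.5 CPM under WT and 31.0 CPM under cKO. *Alpl*, which can also make adenosine, was lower at P8 (log2 fold change -1.71).

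**Figure D3:**
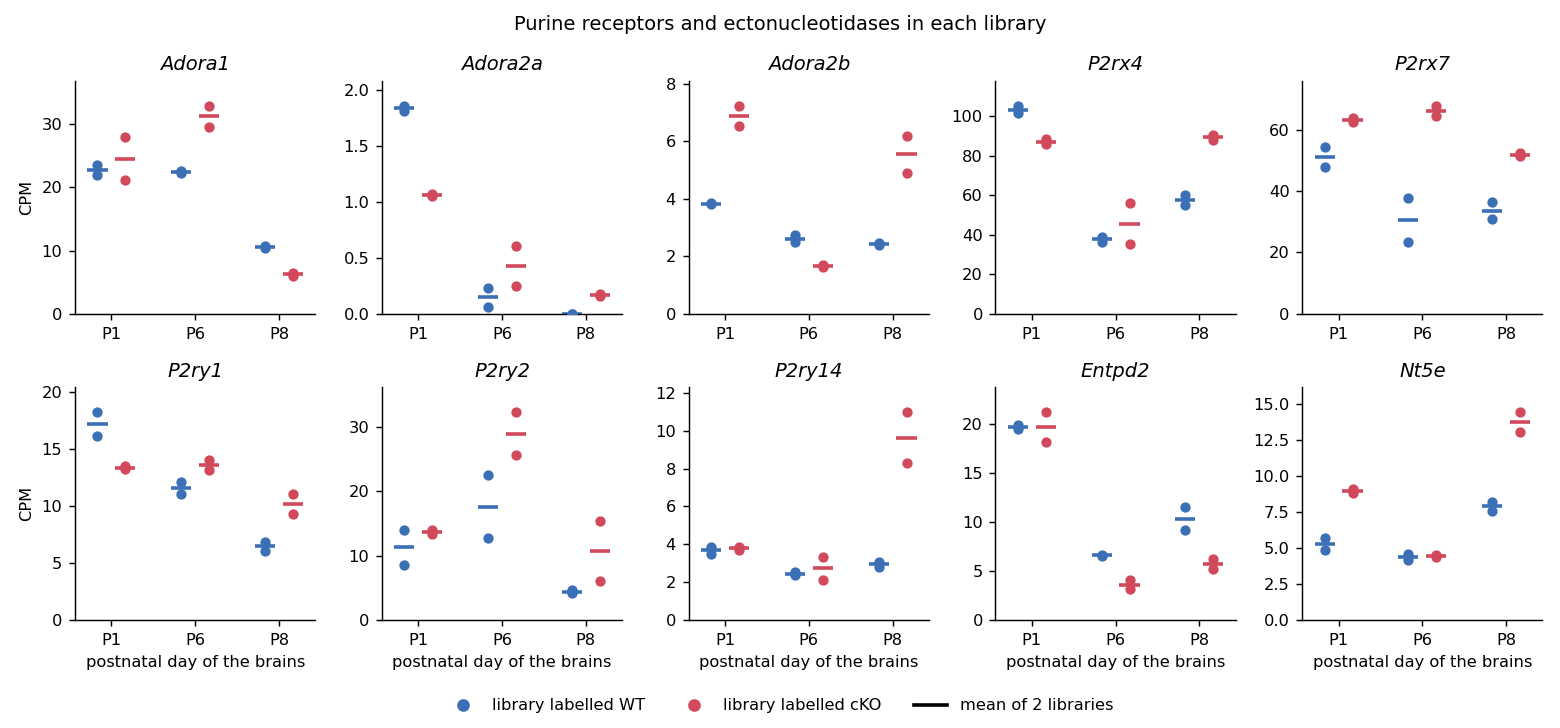
Level of each of the 10 genes (CPM, linear vertical axes from 0, scaled to each gene) against the postnatal day of the brains, with 1 point per library, blue for the label WT and red for cKO, and a line at the mean of the 2 libraries. *P2ry14* stands at 11.0 and 8.27 CPM in the P8 libraries labelled cKO and at 3.88 CPM or less in the other 10 libraries, and *Adora1* has its lowest values at P8.

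Whether the difference between the labels itself changed with the day was tested by the interaction term of the same edgeR model. It passed for 4 members between P1 and P6 (*Adora2b*, *P2ry1*, *Entpd2* and *Nt5e*), against 15.3% of all genes, for 4 between P6 and P8 (*Adora1*, *Adora2b*, *P2ry14* and *Nt5e*), against 21.5%, and for 6 between P1 and P8 (*Adora1*, *Adora2a*, *P2rx4*, *P2ry1*, *P2ry14* and *Entpd2*), against 25.7%. These 3 contrasts share libraries. Leaving out single libraries of the compared days ended the calls of *P2ry1* (edgeR adjusted p = 0.0538 to 0.140), *Entpd2* (0.0765 to 0.112) and *Nt5e* (0.0568 to 0.0662) between P1 and P6, of *Nt5e* between P6 and P8 (0.0569), and of *P2rx4* (0.0553 to 0.0818) and *Entpd2* (0.0604 to 0.0867) between P1 and P8.

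The steps between time points ask how the genes differ between cultures of younger and older brains within a label. From P1 to P6 under the label WT, *P2rx4* (2.73-fold), *Entpd2* (2.97-fold), *P2rx7* (1.67-fold) and *Adora2a* (12.2-fold) fell and 6 members were not called, with 23.1% of all genes called, 10.9% lower. Under the label cKO, *Adora2b* (4.12-fold), *Entpd2* (5.39-fold), *Nt5e* (2.01-fold) and *P2rx4* (1.91-fold) fell over the same step and 6 were not called, with 21.4% of all genes called, 10.4% lower. *Entpd2* and *P2rx4* thus fell from P1 to P6 under both labels. The call of *P2rx7* was lost without the second P1 library labelled WT (edgeR adjusted p = 0.0614) and, with a log2 fold change of -0.44, without the first P6 library labelled WT. *P2ry1* was instead called without either of these 2 libraries (log2 fold change -0.65 and -0.63). Under the label cKO, *P2ry14* was called without the second P6 library labelled cKO (-0.82), and *P2ry2*, with a log2 fold change of 1.08 (SE 0.41, edgeR adjusted p = 0.0692), was called without either P8 library labelled cKO (0.0219 and 0.0221) and with the replicate number as a block (0.0419).

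From P6 to P8 under the label WT, *Nt5e* (1.80-fold), *Entpd2* (1.57-fold) and *P2rx4* (1.53-fold) rose, *P2ry2* (3.98-fold), *Adora1* (2.13-fold), *P2ry1* (1.78-fold) and *Adora2a* fell, the last to no count, and 3 were not called, with 18.9% of all genes called, 8.66% higher and 10.3% lower. Under the label cKO, *P2ry14* (3.50-fold), *Adora2b* (3.32-fold), *Nt5e* (3.08-fold), *P2rx4* (1.96-fold) and *Entpd2* (1.57-fold) rose, *Adora1* (4.99-fold) and *P2ry2* (2.69-fold) fell, and 3 were not called, with 24% of all genes called, 11.9% higher and 12.2% lower. *Nt5e*, *Entpd2* and *P2rx4* rose and *Adora1* and *P2ry2* fell over this step under both labels. In the libraries labelled WT, the calls of *P2rx4* and *Entpd2* were lost without the first P6 library (edgeR adjusted p = 0.0996 and 0.0538), the second P6 library (0.0650 and 0.0671) or the first P8 library (0.0996 and 0.0967). In those labelled cKO, the call of *Entpd2* was lost without the first P6 library (0.0900) or the second P8 library (0.0911), and that of *P2ry2* without the first P6 library (0.102) or the first P8 library (0.104). The steps share libraries with the comparisons of the labels and with each other.

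The rest of the system was read from a list of 39 other purinergic genes, of which 29 were in the table and tested and the other 10 were not analysed here. At P1, 2 of the 29 rose, the ectoenzymes *Enpp2* (log2 fold change 1.08, SE 0.23, edgeR adjusted p = 0.0178) and *Enpp1* (0.76, SE 0.12, adjusted p = 0.00451), and 27 were not called, a share of 6.9% called against 4.9% of all genes. The fibroblast and meningeal list was higher in the same libraries, as were the endothelial and mural sums, and their part was not tested. At P6, 1 rose and 4 fell, and 24 were not called, a share of 17.2% against 13.5% of all genes. *Enpp1*, whose product splits ATP to AMP and pyrophosphate, was at 135 and 120 CPM under WT and at 18.6 and 20.3 CPM under cKO, a log2 fold change of -2.72 (SE 0.13, edgeR adjusted p = 5.86e-07). In the same P6 libraries labelled cKO the fibroblast and meningeal list was lower. The endothelial sum was also lower there and the neuron sum higher. The part of these lists in the P6 differences was not tested. The nucleoside transporter gene *Slc28a2* was lower (-2.29, SE 0.68, edgeR adjusted p = 0.0346), at low levels of 1.39 and 1.34 CPM under WT and 0.0914 and 0.467 CPM under cKO. *Adora3*, the other Gi-coupled adenosine receptor, was higher (1.43, SE 0.35, edgeR adjusted p = 0.0142), at 1.10 and 0.715 CPM under WT and 2.21 and 2.71 CPM under cKO. *Adora3* shares exon bases with *Tmigd3* on the same strand.

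At P8, 7 of the 29 rose, 7 fell and 15 were not called, which is 48.3% called against 19.6% of all genes, with a median log2 fold change of 0.08. *P2rx3*, a channel gene known from sensory neurons, was at 0.572 and 0.222 CPM under WT and at 9.97 and 10.7 CPM under cKO, a log2 fold change of 4.72 (SE 0.51, edgeR adjusted p = 8.62e-05), and its exons overlap those of *Ssrp1* on the other strand. *Slc28a2* was higher too, by 2.59 on the log2 scale (SE 0.65, edgeR adjusted p = 0.0131), at low levels of 0.622 and 0.139 CPM under WT and 2.61 and 1.89 CPM under cKO. *Gja1*, the connexin gene of astrocyte gap junctions, also on the astrocyte list, was at 360 and 712 CPM under WT and 113 and 120 CPM under cKO, a log2 fold change of -2.20 (SE 0.34, edgeR adjusted p = 0.000805). *Alpl*, a phosphatase that can make adenosine from nucleotides, was lower by a log2 fold change of -1.71 (SE 0.16, edgeR adjusted p = 3.1e-05).

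By role, the other genes called at P8 divided as follows. Among 6 further ectoenzymes 3 fell and 3 were not called, and among 8 genes of adenosine uptake and metabolism 3 rose and 5 were not called. Of 3 further P2Y receptors 2 rose, of 4 further P2X receptors 1 rose and 1 fell, of 4 intracellular NTPDases 1 rose and 2 fell, and of 3 genes of ATP release 1 fell. The microglia and neuron lists were higher and the astrocyte, fibroblast and endothelial lists lower in their sums in the same libraries, as given above, and their part in the differences at P8 was not tested.

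**Figure D4:**
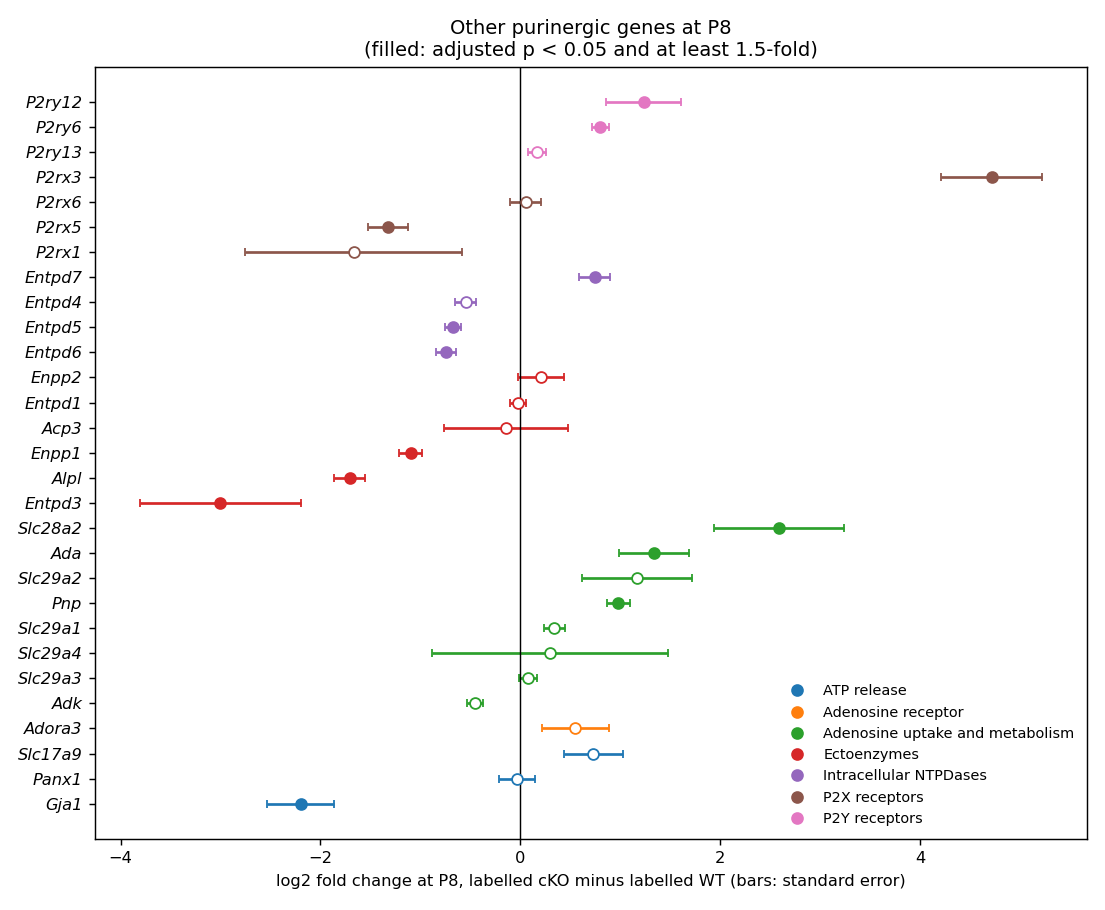
Log2 fold change at P8 (horizontal axis, labelled cKO minus labelled WT, bars of 1 standard error) of the 29 other purinergic genes tested, coloured by role, with filled symbols for called differences. *P2rx3* lies farthest to the right at 4.72 and *Entpd3* farthest to the left at -3.00. The levels of *Entpd3* were low, at 2.09 and 2.90 CPM under WT and 0.164 and 0.452 CPM under cKO.

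Over the 12 libraries, the genes most like each of the 3 members with the widest range were looked for among 15145 genes with a mean of at least 1 CPM, by Pearson's r of log2 CPM. Nearest to *P2ry2* were *Uqcrfs1* (r = 0.945), *Eva1a* (0.933) and *Tmem154* (0.929), nearest to *Entpd2* were *Tra2a* (0.984), *Cdkl4* (0.974) and *Gbp2* (0.972), and nearest to *Adora1* were *Ppm1l* (0.981), *Paqr8* (0.978) and *Mapk8ip1* (0.978). Among pairs of members, the highest r over the 12 libraries was 0.831, for *P2ry14* and *Nt5e*, and the lowest was -0.797, for *Adora1* and *Nt5e*. The 12 libraries form 6 groups of 2 and share the composition of their cultures, so these values only describe the libraries.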

How the data were processed

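The authors deposited whole-number counts of reads per gene, not normalized, for 18903 genes. Per the study's methods, captured mRNA was sequenced and mapped with Hisat2 to GRCm38, and differential genes came from ballgown and DESeq2. Not given in the sources used here are the counting program, its annotation, its strand setting and how it treated multiply mapped reads, and reads of overlapping genes could have gone to either.

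Library totals were 54413504 to 89183250 (median 67180944.5), and TMM factors 0.943 to 1.07. In edgeR 4.0.16 (R 4.3.3, limma 3.58.1), 17938 genes passed filterByExpr. One model with 6 group means was fitted to all 12 libraries, with the quasi-likelihood test and Benjamini-Hochberg adjustment over all genes. Calls required a fold change of 1.5 or more besides an adjusted p below 0.05, and interaction terms the adjusted p alone. On counts simulated for the P8 comparison (17799 genes), the fit recovered 60.4% of genes changed 2-fold and 83.0% of those changed more, with 11 false calls. Only 200 genes were changed there, with noise drawn from the fit's own spread, while 3514 were called in the real comparison. These figures therefore check the fit and do not give the power or error of the P8 calls.

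All 10 members are described. Of the other purinergic genes, the 2 largest rises and falls called at each time point with a mean of at least 1 CPM are named. *Entpd1*, named beside *Nt5e*, and the remaining genes named in the tallies (*Entpd3* and the markers) were singled out after their values were seen. The members and lists were chosen with earlier results of these data known. Lengths and positions came from GENCODE vM21 and promoters from RefSeq. Correlations used log2 of CPM plus 0.5.

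The alternatives were DESeq2 1.42.0, its size factors in edgeR, no low-count filter, the compared groups alone, other cut-offs, the replicate number as a block, and each library left out, where the lone library of a group takes the spread of the other groups. Replicate numbers did not pair the libraries: over 15 pairs of groups, same-numbered deviations correlated at -0.0378 to 0.0968.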

Additional observations from a re-analysis of the deposited data

Results flagged for a closer look

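Whether the difference between the labels itself differed between time points is given here for each pair of days, by the interaction term of edgeR's quasi-likelihood test. The values are differences of log2 fold changes (cKO minus WT), and contrasts that share a time point share its libraries. From P1 to P6, 4 members passed (15.3% of all genes did): *Adora2b* changed by -1.49 (SE 0.23, edgeR adjusted p = 0.00238), *Entpd2* by -0.86 (SE 0.23, adjusted p = 0.0364), *Nt5e* by -0.75 (SE 0.18, adjusted p = 0.0205) and *P2ry1* by 0.60 (SE 0.17, adjusted p = 0.0435). The call of *P2ry1* was lost without any 1 of the 8 libraries of P1 and P6 or of the 2 P8 libraries labelled WT (edgeR adjusted p = 0.0509 to 0.140). That of *Entpd2* was lost without the first or second P1 library labelled WT, the first labelled cKO, the first or second P6 library labelled WT or the first labelled cKO (0.0765 to 0.112), and that of *Nt5e* without the second P1 library labelled WT, the first labelled cKO, the second P6 library labelled WT or the second labelled cKO (0.0568 to 0.0662). *Adora1* was called without the first P1 library labelled cKO (0.58), *P2rx7* without the second P6 library labelled WT (1.19) and *P2rx4* without the first P6 library labelled cKO (0.81).

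From P6 to P8, 4 members passed (21.5% of all genes did): *Adora2b* changed by 1.84 (SE 0.24, edgeR adjusted p = 0.000533), *P2ry14* by 1.55 (SE 0.32, adjusted p = 0.00793), *Adora1* by -1.23 (SE 0.18, adjusted p = 0.00136) and *Nt5e* by 0.77 (SE 0.18, adjusted p = 0.0129). The call of *Nt5e* was lost without the first P8 library labelled cKO (edgeR adjusted p = 0.0569). *P2rx7* was called without the second P6 library labelled WT (-0.87), *P2rx4* without the second P6 library labelled cKO (0.73), and *Adora2a* without the first P6 library of either label (edgeR adjusted p = 0.0313 and 0.0444).

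From P1 to P8, 6 members passed (25.7% of all genes did): *P2ry14* changed by 1.66 (SE 0.32, edgeR adjusted p = 0.00412), *P2ry1* by 1.01 (SE 0.17, adjusted p = 0.00199), *P2rx4* by 0.88 (SE 0.24, adjusted p = 0.0246), *Adora1* by -0.86 (SE 0.18, adjusted p = 0.00753) and *Entpd2* by -0.85 (SE 0.23, adjusted p = 0.0234). The fitted change of *Adora2a*, 7.33 (edgeR adjusted p = 0.00824), depends on the prior count, since the P8 libraries labelled WT had no count, and is no bound. The call of *P2rx4* was lost without any 1 of the 4 P1 libraries, the second P8 library labelled WT or either labelled cKO (edgeR adjusted p = 0.0553 to 0.0818), and that of *Entpd2* without the first or second P1 library labelled WT, the first labelled cKO or the first P8 library of either label (0.0604 to 0.0867).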

How the results depend on the processing

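With a fold change of at least 2 instead of 1.5, the members called by edgeR went from 2 to 0 at P1 (2 by DESeq2 and 2 at an unadjusted p, both with the 1.5-fold cut-off), from 3 to 1 at P6, from 10 to 4 at P8 and from 7 to 3 from P6 to P8 under the label WT, while 560, 1498, 2027 and 2036 of the 17938 genes tested were called at 2-fold in these comparisons. Leaving out 1 library at a time, 1 to 2 members were called at P1, 2 to 3 at P6 and 6 to 10 at P8, with 6 reached without the second P8 library labelled WT. The interaction terms then called 1 to 4 members (P6 against P1, 1 without the second P1 library labelled WT), 3 to 5 (P8 against P6) and 4 to 6 (P8 against P1). Fitted to the compared groups alone, edgeR lost *Adora2b* at P6 (adjusted p = 0.134), *P2ry2* at P8 (0.0912), *Nt5e* in the P6 against P1 interaction (0.0656), *P2rx7* from P1 to P6 under WT (0.0643), and *P2ry2* and *Entpd2* from P6 to P8 under cKO (0.0560 and 0.0659), and it gave no value for *Adora2a* from P6 to P8 under WT, which the filter removed. The P1 to P6 step under cKO gained *P2ry2* in that fit (0.00459) and in DESeq2 on all libraries (0.0119), which also gained *P2rx7* in the P6 against P1 interaction (0.0093).

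The replicate number as a block left the members called at P1, P6 and P8 at 2, 3 and 10. With the block the P6 against P1 interaction lost *Entpd2* (edgeR adjusted p = 0.0572), leaving 3, and the P1 to P6 step under cKO gained *P2ry2* (0.0419), giving 5. The numbers pair the libraries neither in the labels nor by their deviations, with a correlation above 0.1 in 0 of 15 group pairs.

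For the differences between labels at P1, P6 and P8, with the cut-offs kept and the time steps and interactions left aside, 510 values of single members were computed under the alternatives, of which 476 kept direction and side of the threshold, 24 kept direction and lost the call, and 10 changed sign, all without a call. The last were leave-one-out fits, with log2 fold changes of -0.11 to 0.30 for *Adora1*, -0.0401 to 0.67 for *P2ry2*, -0.0269 to 0.11 for *P2ry14* and -0.12 to 0.11 for *Entpd2* at P1, and -0.10 to 0.57 for *P2rx4*, -0.20 to 0.44 for *P2ry14* and -0.0503 to 0.10 for *Nt5e* at P6. Counts limit *Adora2a* most, with at most 40 counts in a library from P6 on.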

Other observations

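The genes of purine handling below were picked after their values at P8 were seen. *P2ry6*, a UDP receptor of microglia, was at 67.8 and 66.8 CPM in the P8 libraries labelled WT and at 116 and 119 CPM in those labelled cKO (log2 fold change 0.80, SE 0.09, edgeR adjusted p = 9.08e-05). *P2ry12*, the ADP receptor by which resting microglia are often recognised, was at 10.3 and 7.59 against 11.1 and 31.0 CPM (1.23, SE 0.38, edgeR adjusted p = 0.0317), and its 2 libraries labelled cKO lay far apart. *Entpd1*, the main ATP-degrading surface enzyme of microglia, was at 62.4 and 61.9 against 61.5 and 60.6 CPM (-0.03, SE 0.08, edgeR adjusted p = 0.850). At P6 *Entpd1* was lower under the label cKO, at 52.2 and 48.8 CPM under WT against 31.6 and 30.4 CPM.

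Of the enzymes that remove adenosine, *Ada*, the deaminase, was at 1.65 and 2.74 CPM under WT and 4.76 and 6.36 CPM under cKO at P8 (1.34, SE 0.35, edgeR adjusted p = 0.0166). *Pnp*, the phosphorylase that follows it, was at 100.3 and 92.0 against 196 and 184 CPM (0.98, SE 0.12, edgeR adjusted p = 0.000159), and its reads may be shared with its copy *Pnp2*. *Adk*, the adenosine kinase known from astrocytes, was at 51.8 and 53.5 against 39.4 and 37.6 CPM (-0.45, SE 0.08, edgeR adjusted p = 0.00231), under the cut-off of 1.5-fold.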
